A study of Mus musculus with 2 samples.

Results

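The 8 genes described here encode kinases of the mitogen-activated protein (MAP) kinase cascades and 1 scaffold, and they were chosen by name from the 26082 genes that both deposited tables hold. They are the MAP kinases Mapk3 (ERK1), Mapk8 (JNK1) and Mapk14 (p38 alpha), the MAP kinase kinases Map2k1 (MEK1) and Map2k2 (MEK2), the RAF kinases Araf and Braf, and the scaffold Ksr1. All 8 were found in both tables, and all 8 had a mean FPKM (the count of fragments scaled by exon length and by a library total) of 1 or more, as did 11213 genes in all. RNA had been sequenced from primary fibro-adipogenic progenitors (FAPs) of WT mice, mesenchymal cells of skeletal muscle from which adipocytes can arise. The FAPs of 1 library were transfected with TGFBR3 overexpressing plasmids and those of the other with the vector, and the cells of both libraries were under adipogenic differentiation in a medium whose inducers were insulin (10 μg/ml), dexamethasone (0.25 μM) and IBMX (0.5 mM), with FBS at 20%. The cells had been sorted from digested hind limb muscles, and how many animals gave the cells of each library is not given in the sources used here. With 1 library per group no difference has a replicate check, so that no p-value is given and every value compares these libraries, not the conditions.

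MAP kinase cascades are chains of kinases in which each phosphorylates and switches on the next. In the ERK chain, active RAS recruits RAF kinases, RAF phosphorylates MEK1 and MEK2, and these phosphorylate ERK on a threonine and a tyrosine of the activation loop. KSR1 resembles RAF and holds RAF, MEK and ERK together, while JNK and p38 stand at the ends of parallel chains that respond to stress and cytokines. Transcript levels tell nothing of the phosphorylation that carries the signal. In preadipocytes, ERK activity is known to act early in differentiation and to inhibit PPARγ through phosphorylation.

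The gene that should be overexpressed was examined first. Tgfbr3, a co-receptor for TGF-β ligands, had an FPKM of 36.9 in the library labelled TGFBR3 OE and of 35.1 in the library labelled control. The log2 ratio of (FPKM + 1), the measure used below, was 0.07 (95% CI 0.04 to 0.10), below the 0.13 of the median gene among those at an FPKM of 1 or more in each library. It was below 0 under 5 of the 9 other ways of computing it. The RNA thus did not show the overexpression that the label names, and every direction below is that of the labels. The paper lists RT-PCR of TGFBR3 in FAPs given these plasmids or vectors, which was not compared here. The FPKM of 10 FAP markers summed to 1760 in the library labelled TGFBR3 OE and to 1968 in the other, and 6 of the 10 were lower in the former. Of these, Col3a1 was at 95.8 and 199 (log2 ratio −1.05), Col1a1 at 467 and 870 (−0.89) and Cd34 at 20.6 and 25.7 (−0.30). Pdgfra was at 30.5 and 32.6, Ly6a at 1013 and 706, and Thy1 at 114 and 117, whereas Pi16, Dpp4 and Lum lay at 0.27 or below in both libraries. The FPKM of 8 macrophage markers summed to 0.78 and 0.49, with Adgre1, Tyrobp and Fcer1g at 0 in both. The sums were 1.63 and 1.30 over 4 muscle cell markers and 2.17 and 2.03 over 5 endothelial markers. Over 7 adipocyte markers the sum was 57.3 in the library labelled TGFBR3 OE and 94.0 in the library labelled control, and 5 of the 7 were lower in the former. The part of the FAP and adipocyte marker differences in the results below was not tested, and in RNA of bulk cells fewer cells of a type and less RNA per cell cannot be told apart. Depth was 62321027 counts over all genes under the TGFBR3 OE label and 83779203 under the control label.

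The sequences around the activation loops are shown because the phosphorylation that switches these kinases on falls there, and because MEK1 and MEK2 are paralogs whose reads have to be told apart. Each line gives the coding strand over 30 bases, 5′ to 3′, from the mm10 genome with the GENCODE M21 transcripts, and the capitals mark the codons from the first to the last residue that the kinase above phosphorylates.
Mapk3: ggctttctgACGGAGTATgtggccacacgc
Mapk8: tttatgatgACGCCTTATgtggtgactcgc
Mapk14: gatgagatgACAGGCTACgtggctaccagg
Map2k1: attgacTCTATGGCCAACTCCttcgtgggc
Map2k2: atcgacTCCATGGCCAACTCGtttgtaggg
The Mapk3 window lies at chr7:126763449-126763478 on the plus strand, in exon 4, and its capitals are codons 203 to 205. The Mapk8 window is at chr14:33392991-33393020 on the minus strand (codons 183 to 185), and that of Mapk14 is at chr17:28728390-28728419 on the plus strand (codons 180 to 182). For the MEK genes the windows are at chr9:64193720-64193749 on the minus strand for Map2k1 (codons 218 to 222) and at chr10:81119334-81119363 on the plus strand for Map2k2 (codons 222 to 226).

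Threonine and tyrosine frame a glutamate in ERK, a proline in JNK and a glycine in p38, and this middle residue tells the families apart. Between Mapk3 and Mapk8, 12 of the 30 bases differed, and between Mapk3 and Mapk14, 14. Between Map2k1 and Map2k2 6 bases differed, each of them the third of its codon, so that the stretch encodes the same residues. Over the whole coding sequence, G or C stood at the third base of 75.3% of codons in Mapk3, of 79.1% in Map2k2 and 66.9% in Map2k1, and of 42.4% in Mapk8. At most 2.96% of the 31-base words of any of the 8 genes occur in transcripts of another gene.

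None of the 8 genes differed 2-fold between the libraries on the scale of log2(FPKM + 1). Across the 11213 genes, 4.17% differed 2-fold, 3.14% higher in the library labelled TGFBR3 OE and 1.03% lower. None of the 8 reached 1.5-fold on this scale either, which 18.2% of all genes did. The log2 ratio was above 0 for Braf, Map2k1, Mapk8 and Mapk14 and below 0 for Mapk3, Map2k2, Araf and Ksr1, while 63.1% of all genes were above 0 and 36.7% below. The median over the 8 was 0.06, beside 0.14 over all genes. For 7 of the 8 the counting interval left out 0, as it did for 84.9% of all genes, so that at this depth the interval sets few genes apart.

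**Figure D1:**
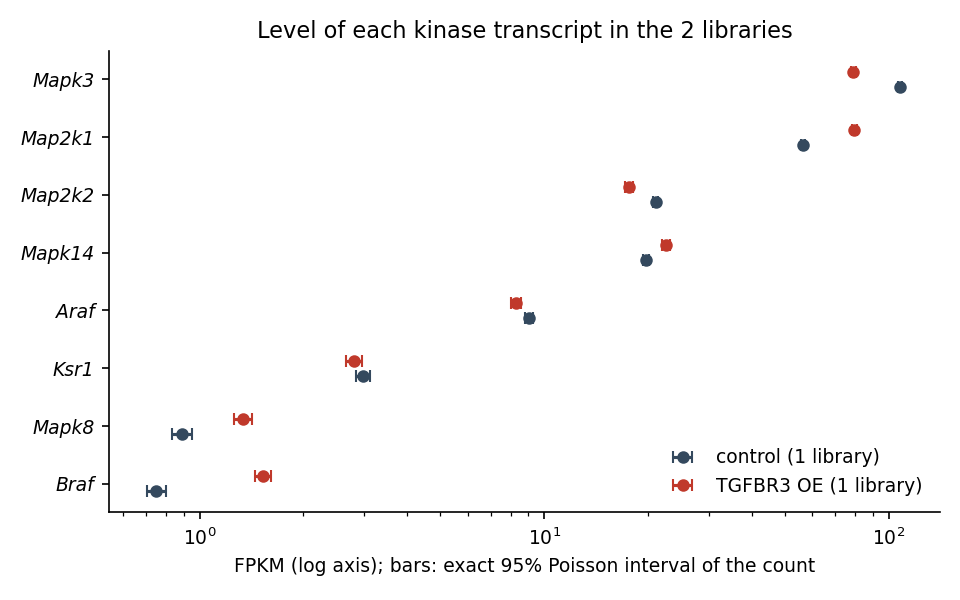
FPKM of each kinase gene on a log axis in the library labelled TGFBR3 OE (red) and the library labelled control (dark), 1 library each, with exact 95% Poisson intervals of the counts as bars. Mapk3 and Map2k1 stood highest in both libraries, and Braf and Mapk8 lowest.

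Levels spanned about 2 orders of magnitude. Mapk3 and Map2k1 stood at the 92.5th percentile of the 11213 genes or above in each library, and Braf and Mapk8 at the 7.54th or below. Araf held rank 5 and Ksr1 rank 6 of the 8 in both libraries, and 3 neighboring pairs changed places between them. Map2k1 was first and Mapk3 second in the library labelled TGFBR3 OE, with overlapping counting intervals of 78.3 to 80.6 and 77.5 to 80.4, and in the other library Mapk3 was first by a wide margin. Mapk14 stood above Map2k2 in the library labelled TGFBR3 OE and below it in the library labelled control, and Braf stood above Mapk8 in the former and below it in the latter. Apart from Map2k1 and Mapk3 in the library labelled TGFBR3 OE, no neighbors of this order had overlapping counting intervals.

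At the RAF step, which receives the signal from RAS, both members were low to moderate. Braf (ENSMUSG00000002413) encodes the RAF kinase with the highest basal activity toward MEK and lies on the minus strand of chromosome 6 (39603237 to 39725463, mm10). It had 1443 counts in the library labelled TGFBR3 OE and 960 in the library labelled control, or 1.53 and 0.75 FPKM. Its mean FPKM (1.14) thus reached the required 1 only through the library in which it was higher. The shares over all genes rest on the same filter. The log2 ratio of Braf was 0.53 (95% CI 0.47 to 0.59) with the added 1 and 1.03 (0.91 to 1.15) without it, a plain ratio of 2.04-fold (1.88 to 2.22). By the plain ratio Braf was therefore the 1 of the 8 genes past 2-fold, as were 8.44% of all genes, with 6.59% of all genes higher under the TGFBR3 OE label.

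The base composition, length and neighbor of Braf are given beside this value, and their part in it was not tested. Its exons have a GC content of 40.1%, and the 561 genes of its bin of GC content had a median log2 ratio of 0.45. Among these genes Braf stood at the 62.4th percentile, against the 84.0th among all genes. Removal of the trend over exon GC took its log2 ratio to 0.09, and removal of that over exon length to 0.20. Both values hold the added 1, which shrinks the ratio of a gene this low. Without the added 1, the log2 ratio of Braf less the median of its GC bin was 0.42. Ndufb2, on the opposite strand, shares 146 exon bases with Braf and was itself lower in the library labelled TGFBR3 OE, at 794 against 2020 counts.

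Araf (ENSMUSG00000001127), an X-linked RAF kinase with weak activity toward MEK, lies on chromosome X from 20797814 to 20860519, on the plus strand. Its level was 8.29 FPKM under the TGFBR3 OE label and 9.06 FPKM under the control label (3682 and 5483 counts). This is a log2 ratio of −0.11 (95% CI −0.17 to −0.06), a small difference that grew to −0.34 with the trend over GC removed, since genes of like GC content had a median of 0.23. Araf stood at the 16.4th percentile of its GC bin, the lowest place of the 8 genes within their bins. Together Araf and Braf had an FPKM of 9.82 and 9.81, so that their sum was nearly the same in both libraries while its make-up was not.

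Ksr1 (ENSMUSG00000018334), the scaffold, lies on chromosome 11 from 79013440 to 79146407, on the minus strand. It had an FPKM of 2.81 from 1355 counts in the library labelled TGFBR3 OE and of 2.98 from 1960 counts in the library labelled control. The log2 ratio of Ksr1 was −0.06 (95% CI −0.14 to 0.01), the only interval of the 8 that included 0, and at this depth the counts did not tell the libraries apart on this scale. It was the median gene of its GC bin, so that its value with the trend over GC removed was 0 by construction. Ksr2, the paralog, had no count in either library, where 3 counts are taken as the floor.

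The MEK genes stood in opposite directions. Map2k1 (ENSMUSG00000004936), which encodes MEK1, lies on chromosome 9 from 64185770 to 64253631, on the minus strand. Map2k1 reached 79.4 FPKM under the TGFBR3 OE label and 56.4 FPKM under the control label, and its raw counts, 18270 and 17671, were close, the second library being the deeper. On the log2 scale the ratio was 0.49 (95% CI 0.46 to 0.52), and with the trend over GC removed it was 0.41. At the 85.7th percentile, it held the highest place of the 8 genes within their GC bins.

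Map2k2 (ENSMUSG00000035027), which encodes MEK2, the close paralog with the same substrates, lies on chromosome 10 from 81105915 to 81133975, on the plus strand. It was measured at 17.62 FPKM (6771 counts) under the TGFBR3 OE label and at 21.04 FPKM (11013 counts) under the control label. The ratio on the log2 scale was −0.24 (95% CI −0.28 to −0.20), which became −0.15 with the trend over GC removed. Summed, the transcripts of both MEK genes were at 97.0 and 77.4, higher in the library labelled TGFBR3 OE, as Map2k1 was the more abundant.

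Mapk3 was the gene of the 8 with the lowest log2 ratio, at −0.44 (95% CI −0.48 to −0.41). Its exons, up to 9 in a transcript, on the plus strand of chromosome 7 (126759601 to 126765819) encode ERK1, and its identifier is ENSMUSG00000063065. It stood at 78.9 FPKM (12089 counts) in the library labelled TGFBR3 OE and at 108 FPKM (22470 counts) in the other. The plain ratio was 1.36-fold (95% CI 1.33 to 1.40) in favor of the control label. Mapk3 stood at the 8.54th percentile of the 11213 genes by log2 ratio and at the 20.5th of its GC bin, and with the trend over GC removed the log2 ratio was −0.31.

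The stress-activated MAP kinases were higher under the TGFBR3 OE label by the main measure, and for both the direction turned under some alternatives. Mapk14 (ENSMUSG00000053436), which encodes p38 alpha, the p38 kinase found in most tissues, lies on chromosome 17 from 28691329 to 28748406, on the plus strand. It had FPKM values of 22.6 and 19.7 from 6700 and 7975 counts, higher in the library labelled TGFBR3 OE by 0.18 on the log2 scale (95% CI 0.14 to 0.23). With counts scaled by TMM factors (trimmed mean of M values) or by median-of-ratios size factors, which take the median gene to −0.05 and −0.08, this became −0.03 and −0.06, so that its direction changed with the scaling. Mapk14 was at the 54.6th percentile of all genes.

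Mapk8 (ENSMUSG00000021936), which encodes JNK1, lies on chromosome 14 from 33377898 to 33447158, on the minus strand. It was scarce, at 1.34 FPKM (1044 counts) under the TGFBR3 OE label and 0.89 FPKM (943 counts) under the control label. As for Braf, its mean FPKM (1.115) reached the required 1 only through the library in which it was higher. By the main measure the log2 ratio was 0.31 (95% CI 0.24 to 0.37). The plain ratio was 1.51-fold (95% CI 1.38 to 1.65), higher under the TGFBR3 OE label. Its exons have the lowest GC content of the 8, at 36.8%, and within its GC bin Mapk8 stood at the 30.3rd percentile, where among all genes it stood at the 66.5th. The log2 ratio of Mapk8 turned negative with the trend over GC removed (−0.14) or the trend over exon length removed (−0.03). Without the added 1, the log2 ratio of Mapk8 less the median of its GC bin was −0.02.

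**Figure D2:**
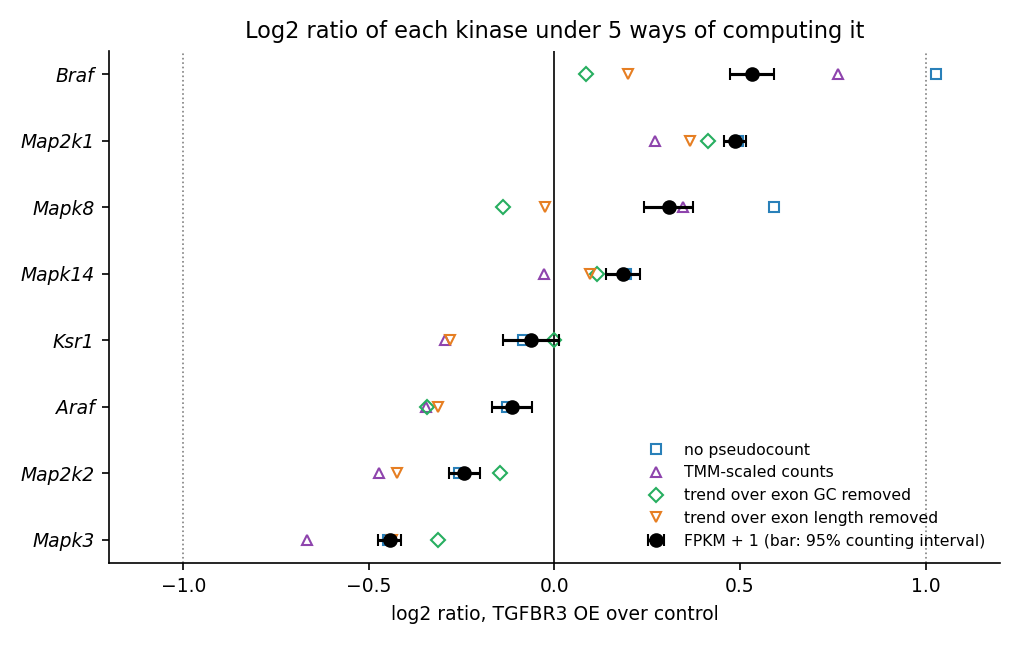
Log2 ratio of each kinase gene, library labelled TGFBR3 OE over library labelled control, by the main measure with its 95% counting interval (black) and under 4 other ways of computing it (open symbols), with dotted lines at 2-fold. Mapk3, Map2k2 and Araf stayed below 0 and Map2k1 and Braf above 0 under each of the ways shown, and Braf alone passed 2-fold, at 1.03 without the added 1.

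Because a ratio of 2 transcripts within a library does not depend on how the libraries are scaled, 5 pairs of kinases were set against each other in each library. The intervals are exact conditional intervals of the odds ratio of the counts, and cover counting error only. In the MEK pair the more abundant paralog took the larger share under the TGFBR3 OE label, as Map2k1 made up 72.8% of MEK transcripts under the control label and 81.8% under the TGFBR3 OE label. This is a ratio to Map2k2 of 2.68 and 4.51 and a log2 difference of 0.75 (0.70 to 0.80).

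**Figure D3:**
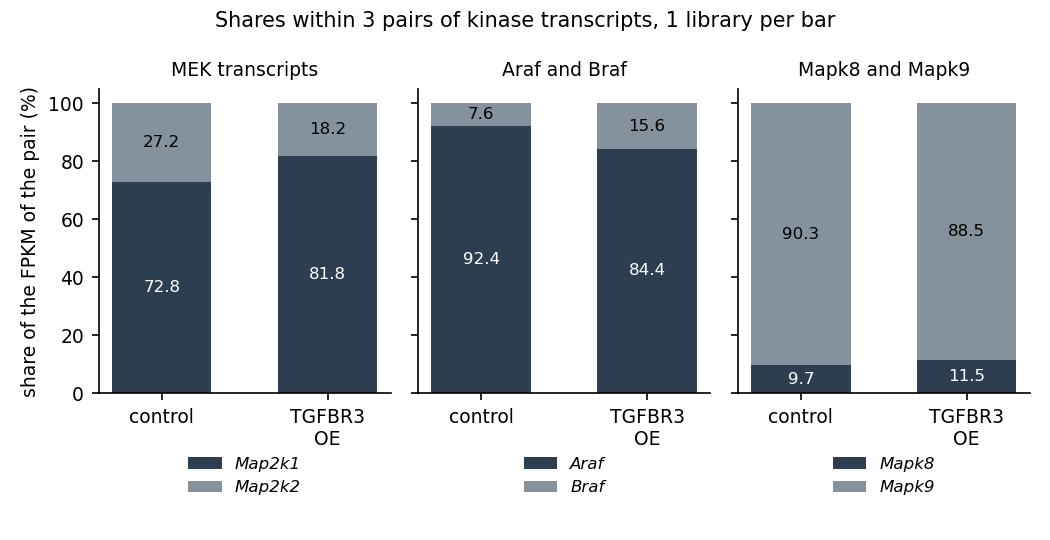
Share of each gene in the summed FPKM (%) of 3 pairs of kinase transcripts, with 1 bar for the library labelled control and 1 for the library labelled TGFBR3 OE. Under the TGFBR3 OE label the shares of Map2k1 (81.8% against 72.8%), Braf (15.6% against 7.65%) and Mapk8 (11.5% against 9.73%) were higher, although with the trend over GC removed the difference of Mapk8 and Mapk9 on the scale of log2(FPKM + 1) was −0.11.

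Of the sum of the Araf and Braf transcripts, Braf made up 7.65% in the library labelled control and 15.6% in the library labelled TGFBR3 OE. The ratio of Araf to Braf was 12.1 and 5.42, a log2 difference of −1.16 (95% CI −1.30 to −1.03), and that of Ksr1 to Braf was 3.97 and 1.84, a log2 difference of −1.12 (−1.28 to −0.96). Relative to both, Braf was thus higher under the TGFBR3 OE label.

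Both members outside the ERK chain were set against a partner too. Mapk8 made up 9.73% of the sum with Mapk9, which encodes JNK2, under the control label and 11.5% under the TGFBR3 OE label, a log2 difference of 0.27 (95% CI 0.13 to 0.41). On the scale of log2(FPKM + 1) the difference was 0.02, and −0.11 with the trend over GC removed. Mapk9 was therefore the main JNK transcript in both libraries. The ratio of Mapk14 to Mapk8 was 22.2 and 16.8.

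In these pairs the genes also differed in GC content. Exon GC was 51.1% in Map2k1 and 56.7% in Map2k2, and 47.6% in Araf and 40.1% in Braf. In both of these pairs the gene of lower GC content had a larger share under the TGFBR3 OE label than under the control label. On the scale of log2(FPKM + 1), the differences were 0.73 for Map2k1 and Map2k2 and −0.65 for Araf and Braf. Removal of the trend over GC took them to 0.56 and −0.43, respectively, with no change of sign. Between Ksr1 and Braf it took −0.59 to −0.09. Both pairs with Mapk8 changed sign, from 0.02 to −0.11 against Mapk9 and, for Mapk14 against Mapk8, from −0.12 to 0.25. All these differences hold the added 1, which shrinks the ratios of Braf and Mapk8, the lowest genes, more than those of their partners. Without the added 1, the log2 ratio less the median of the GC bin was 0.42 for Braf, −0.01 for Ksr1 and −0.41 for Araf. It was −0.02 for Mapk8 and 0.10 for Mapk14, and was not computed for Mapk9.

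**Figure D4:**
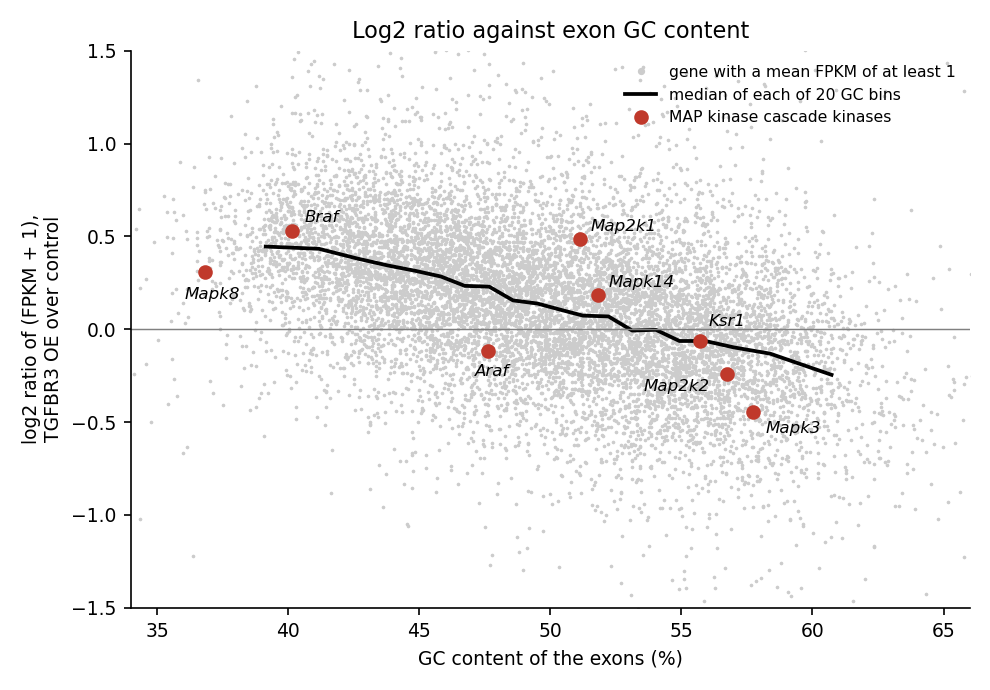
Log2 ratio of (FPKM + 1), library labelled TGFBR3 OE over library labelled control, against the GC content of the exons (%), with 1 gray point per gene whose mean FPKM was 1 or more, the median of each of 20 GC bins as a black line, and the 8 kinase genes in red; genes past the axis limits are not drawn. The bin medians ran from 0.45 at the lowest GC content to −0.25 at the highest, and the kinase genes lay on both sides of the line.

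The log2 ratio followed GC content over the whole table as well as over the 8 genes. Spearman's rho across genes, which are not independent replicates and share their libraries, was −0.47 over 11207 genes and −0.76 over the 8. After removal of the trend, a step that by itself weakens such a correlation, rho was −0.21 over the 8. The SD of their log2 ratios went from 0.35 to 0.25, and that over all genes from 0.51 to 0.47.

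The other genes of the pathways, 125 in 10 lists compiled from general knowledge, are given for comparison. Of these, 105 had a mean FPKM of at least 1, and none of them differed 2-fold, as 4.17% of all genes did. Their median log2 ratio was 0.09, beside 0.14 over all genes. Above 0 were 65 of the 105, near the 63.1% of all genes, and the counts for each list below stand beside that share. Without the added 1, Cnksr1 was past 2-fold higher (1.77) and Egr2 past 2-fold lower (−1.40), where 8.44% of all genes were past 2-fold.

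Upstream of RAF, 15 of 19 adaptors, exchange factors and RAS-family genes were above 0, with a median of 0.20. The largest ratios were those of Shoc2, part of the phosphatase complex that activates RAF (8.50 against 4.83 FPKM, log2 ratio 0.70), Frs2, the adaptor of fibroblast growth factor receptors (0.67), and the small GTPase Rap1b (0.65). With the trend over GC removed they were 0.32, 0.36 and 0.22, and the median of the list was −0.01. Among 15 other genes of the RAF, MEK and ERK chain, 10 were above 0, with a median of 0.16. Cnksr1, a scaffold that binds RAF, was at 1.67 against 0.49 FPKM (0.84). Lamtor2 (−0.56) and Lamtor1 (−0.51), which anchor MEK1 on late endosomes as parts of the Ragulator complex, were at 25.9 against 38.5 and 28.6 against 41.3 FPKM, and they remained below −0.49 under all 9 other ways of computing them.

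In the JNK chain, 5 of 7 genes were above 0, and the scaffolds Mapk8ip1 (−0.72, from 4.74 against 8.46 FPKM) and Mapk8ip3 (0.67, from 5.88 against 3.31 FPKM) stood in opposite directions. Map2k4, a kinase that phosphorylates JNK, was at 11.99 and 8.06 FPKM (0.52, and 0.20 with the trend over GC removed). Map2k7, another kinase of this chain, stood in the other direction, at 16.04 and 18.21 FPKM (−0.17, and −0.11 with that trend removed). The median of the list was 0.16, and −0.10 with that trend removed. Of 6 further genes of the p38 chain 4 were below 0, with a median of −0.17, and Mapk11, which encodes p38 beta, was the lowest (−0.60, from 3.11 against 5.23 FPKM), followed by Mapk13 (−0.18) and Mapk12 (−0.18). Of the 4 other MAP kinase and MEK5 genes measured, 2 were above 0, with the largest ratio in Mapk6, which encodes the atypical kinase ERK3 (0.60). Nlk was at 0.26 and turned to −0.08 with the trend over GC removed, and Map2k5, which encodes MEK5, was at −0.19.

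Further up, 8 of 14 MAP3K genes were above 0, with a median of 0.07 and with Map3k10 (−0.63), Taok1 (0.55) and Map3k6 (−0.52) at the extremes. With the trend over GC removed, these were −0.39, 0.12 and −0.28, and the median was −0.06. All but 1 of 5 MAP4K-type kinases were above 0, with a median of 0.34, led by Map4k5 (0.64), Map4k3 (0.49) and Map4k2 (0.34), which were 0.30, 0.06 and 0.40 with the trend removed. Of the 8 kinases that MAP kinases activate, 4 were above 0 and 4 below. Rps6ka3, which encodes RSK2, a target of ERK, was at 0.48 and Rps6ka4, which encodes the nuclear kinase MSK2, at −0.46, and Mapkapk3, a p38 target, was at 0.32. With the trend over GC removed, they were 0.04, −0.21 and 0.33.

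Among inhibitors, 10 of 15 were above 0, with a median of 0.07. Dusp10, a phosphatase that acts on JNK and p38, was at 12.5 against 7.65 FPKM (0.64), and the RAS pathway inhibitors Spry2 (0.47) and Spry1 (−0.43) stood in opposite directions. Genes that ERK signaling induces early had the lowest median of the 10 lists, −0.24, with 7 of 12 below 0. The transcription factor gene Egr2 was at 1.29 against 3.40 FPKM (−0.94), Ier2 at 10.9 against 16.7 (−0.57) and Fosl1 at 38.2 against 28.4 (0.42). Their exons are rich in GC, with a median of 56.0%, and with the trend over GC removed the median of the list was −0.07. That removal took the median to 0.07 for the other genes of the ERK chain, to −0.12 for the p38 chain, to 0.18 for the MAP4K-type kinases, to 0.05 for the kinases downstream and to 0.03 for the inhibitors.

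**Figure D5:**
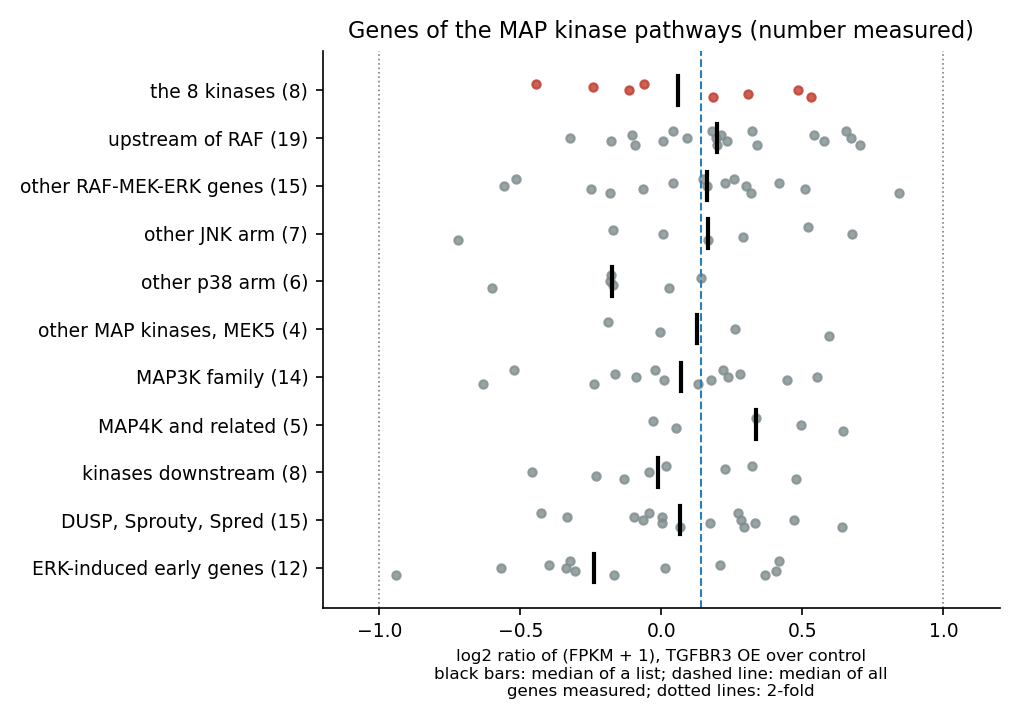
Log2 ratio of (FPKM + 1), library labelled TGFBR3 OE over library labelled control, for the 8 kinase genes (red) and for the genes of 10 other lists of the MAP kinase pathways (gray), with the number of genes measured in parentheses, black bars at list medians, a dashed line at the median of all genes (0.14) and dotted lines at 2-fold. No gene passes a dotted line, and the list medians lie between −0.24 and 0.34.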

How the data were processed

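The authors deposited, for each gene, raw counts and FPKM values rounded to 2 decimals. The study's methods name STAR and FeatureCounts on mm10, whereas the submitters' processing notes name cutadapt 1.9, HISAT2 2.2.1, StringTie 2.1.6, DESeq2 and edgeR, and which of these made the files was not settled. The labels describe poly(A) selection, second-strand marking with dUTP and paired-end reads (150 nt). In 98.5% of 7908 and 98.6% of 8334 genes with at least 1000 counts, count over GENCODE M21 exon length, scaled by 1 library total, gave the FPKM to within 1%. Groups were taken from the titles, with 1 library each. The members and lists were chosen with earlier results of these data known.

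Log2 ratios of (FPKM + 1), which understate the change of low genes, were computed where the mean FPKM was 1 or more, with a threshold of 1 or −1 (2-fold). The 95% intervals come from exact Clopper-Pearson limits on the counts. They cover counting error only, and reads without molecular identifiers, whose use is not stated, are not independent molecules. The trends over exon GC and length were removed as medians of 20 bins. From each list, up to 3 genes with the largest absolute ratio were named. Mapk9, Map2k7, Ksr2, the overlapping Ndufb2 and the comparison of pairs were chosen after values were seen. Alternatives were pseudocounts of 0.1 and 0, no FPKM filter, centring, CPM, TMM (edgeR 4.0.16), median-of-ratios size factors, a common FPKM sum without the 50 highest genes, both trends, protein-coding genes and 1.5-fold. Python 3.11.15, scipy 1.17.1 and R 4.3.3 were used. On simulated counts, the intervals without a pseudocount and the 2-fold call were tested. The intervals of log2(FPKM + 1) and of the pairs were not. Protein sequences were not used here.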

Additional observations from a re-analysis of the deposited data

How the results depend on the processing

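No paired analysis was possible because each group held 1 library, and for the same reason no library could be left out. Of the 8 kinase genes, Mapk3, Map2k2 and Araf were below 0 and Map2k1 and Braf above 0 under all 9 alternatives that recompute a ratio. The number past 2-fold was 0 by the main measure and 1, Braf, without a pseudocount. The median log2 ratio of the 8, 0.06, was −0.19 with median-of-ratios size factors. Of all genes, 352 were 2-fold higher under the TGFBR3 OE label, and 645 with a pseudocount of 0.1, 739 with none and 1488 at 1.5-fold. There were 116 genes 2-fold lower, and 192 with a pseudocount of 0.1, 207 with none, 183 after centring, 302 with TMM, 336 with median-of-ratios size factors and 550 at 1.5-fold. The share of higher genes among those past 2-fold was 75.2%, and 59.4% after centring, 48.4% with TMM, 44.4% with median-of-ratios size factors and 64.6% with the trend over GC removed. Of the 105 genes of the pathway lists, 0 were past 2-fold, and 2 with a pseudocount of 0.1, 2 with none, 1 after centring, 2 as CPM, 3 with TMM, 3 with median-of-ratios size factors, 1 with the trend over length removed and 12 at 1.5-fold. The cause of these shifts was not tested.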
